A study of Caenorhabditis elegans with 3 samples.

Results

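Heat shock was given here as 24 h at 30 °C, and the larvae so treated were set against untreated ones, gene by gene. The comparison took the deposited log2 level of each probe set on the heat shock array minus that on the control array. Probe sets entered if 1 or both of the 2 arrays had them above its own median level, which held for 11969 of 22625. A positive difference means a higher level in heat-shocked larvae, and a log2 difference of 1 is a 2-fold difference in level. Probe sets naming a single gene covered 17118 genes, of which 9013 passed this filter.

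The animals were whole Caenorhabditis elegans of the Bristol wild-type strain N2, labelled as first-stage (L1) larvae. The heat shock group was kept at 30 °C for 24 h as the positive control for stress, a bio-electrospray group passed through a charged needle, and the control group was left untreated. The 3 groups shared parents grown at 20 °C on Escherichia coli OP50 and a start as a synchronous population made by bleaching. Each group had 1 Affymetrix array, so there is no estimate of spread, no p-value is given, and a difference says only how far these arrays lay apart. The labels give neither the temperature of the control larvae during those 24 h nor the age of any group at collection, so heat and larval stage cannot be told apart. In RNA from whole animals, fewer cells of a type and less RNA per cell cannot be told apart either.

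Heat unfolds proteins, and worms answer through the heat shock factor HSF-1, which switches on chaperone genes, and through other stress regulators such as DAF-16, the FOXO factor of the insulin pathway. Larvae of this species pass through fixed stages separated by moults, driven by heterochronic genes whose levels change from stage to stage. The germline divides and differentiates during the later larval stages, and temperatures near 30 °C lie above the range in which the strain grows and reproduces.

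Counted per probe set, 1042 stood 2-fold or more above control on the heat shock array and 927 stood 2-fold or more below it, together 16.5% of those compared. Counted per gene, of 9013 genes 810 reached 2-fold on the higher side (8.99%) and 740 on the lower side (8.21%), and the median difference was 0. These shares and this median are the background for every list below. The middle 95% of gene differences ran from −1.97 to 1.82, and 1313 genes had equal levels on both arrays. The threshold fell within a continuous range of values. W07A12.4 at 1.00035 was counted and dbd-18 at 0.99965 was not, while mrrf-1 at −1.00112 was counted and C07D8.6 at −0.9988 was not. Among the 7982 genes above the median on both arrays, 572 were 2-fold higher and 569 lower. A further 519 genes passed through the heat shock array alone and 512 through the control array alone. Of those 1031 genes, 18 had equal levels that lay between the medians of the arrays, and the rest had to differ. The 18 hybridization spike-in probe sets, which read RNA added during the assay, had a median difference of −0.53 (−1.07 to −0.15), and their part in the gene differences was not tested.

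**Figure D1:**
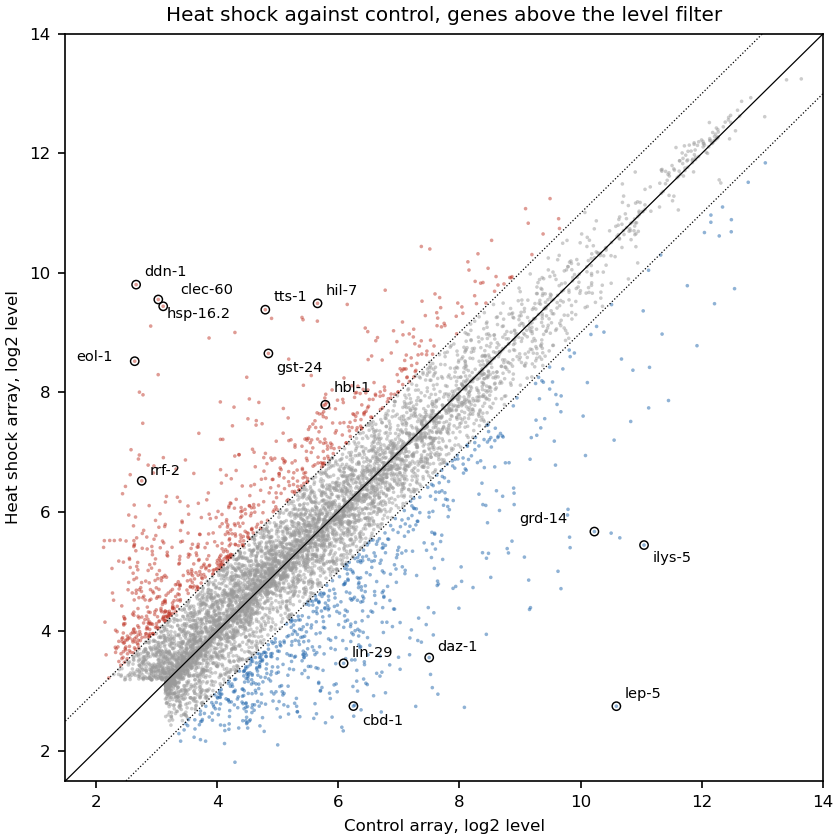
Log2 level of each gene above the filter on the heat shock array (vertical) against the control array (horizontal); the solid line marks equal levels, dotted lines 2-fold, and red and blue points are genes at least 2-fold higher or lower in heat shock. The genes farthest from the line, ddn-1 at 9.80 in heat shock and 2.67 in control and lep-5 at 2.75 in heat shock and 10.59 in control, lay below the array median where they were low.

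Genes that time larval development differed in opposite directions. Of the 15 heterochronic genes above the filter (of 18 on the array), 3 were at least 2-fold higher in heat shock, namely lin-28, hbl-1 and daf-12, and 3 lower, namely lin-29, kin-20 and lep-5. The RNA-binding protein gene lin-28, known to act in early larvae, had 5.93 on the heat shock array, 4.39 on the bio-electrospray and 4.41 on the control array, a difference of 1.52. Its 2 further probe sets differed by 1.71 and 1.88. The Hunchback-like zinc finger gene hbl-1, which also opposes later fates, had 7.79 on the heat shock array, 5.24 on the bio-electrospray and 5.79 on the control array. For these genes the heat shock array was the high one of the 3 and the other arrays lay close together.

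The later-acting genes ran the other way. The zinc finger gene lin-29, known for the switch from larval to adult skin, had 3.47 on the heat shock array, 5.75 on the bio-electrospray and 6.09 on the control array, a difference of −2.62. The long non-coding RNA lep-5, which promotes late larval fates, stood at 2.75 in heat shock, 10.44 after spraying and 10.59 in control. Beside them kin-20, a casein kinase gene that works with lin-42, was lower by −1.3 and lin-42 itself differed by −0.97. The TRIM-type gene lin-41 (0.96) and blmp-1 (0.18) did not reach 2-fold. The probe sets of lin-14, the earliest of these regulators, were below the filter.

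The levels on the control and bio-electrospray arrays go against a pure first-stage population. The eggshell gene cbd-1 had 2.75 on the heat shock array, 6.29 on the bio-electrospray and 6.25 on the control array, and its second probe set differed by −2.70. The probe set named for the major sperm protein gene msp-36, which like those of all 20 msp genes above the filter may read several of them, had 3.08 in heat shock, 5.38 after spraying and 6.24 in control. Levels of gld-1, a translational repressor of developing germ cells, were 4.4 in heat shock, 6.75 after spraying and 6.73 in control. Such transcripts are known from later larvae and adults. The yolk protein genes vit-2 and vit-6, which are adult transcripts of the intestine, were below the filter. The larvae are named below by their treatment and not by a stage.

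**Figure D2:**
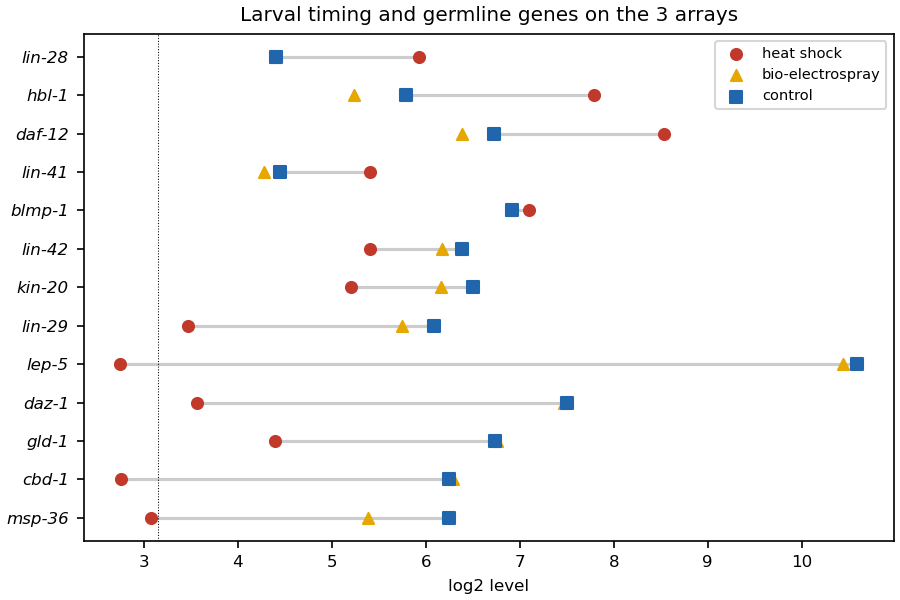
Log2 levels (horizontal) of larval timing genes and germline genes on the heat shock, bio-electrospray and control arrays, 1 array each; the dotted line is the median of the control array. The early-acting genes lin-28, hbl-1 and daf-12 were highest on the heat shock array, and lin-29, lep-5 and the 4 germline genes lowest there.

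Among tissue lists with a median, those of sperm, germ cell fate and meiotic chromosomes lay farthest below 0. The hypodermis and seam list (−0.59) and the oocyte and eggshell list (−0.56) came next. Farthest above 0 were the GABA neuron and pan-neuronal lists. The median was above 0 in the pan-neuronal list and below 0 in the 4 germline lists, and in body wall muscle and intestine it was near 0. The pan-neuronal list had 34 of 39 genes above the filter, 4 of them 2-fold higher (11.8%, against 8.99% over all genes). None was lower, and the list had a median of 0.56. Its 4 higher members were egl-21, egl-3, sbt-1 and syd-1, and the first 3 make or handle neuropeptides. The carboxypeptidase gene egl-21 had 9.28 on the heat shock array, 7.50 on the bio-electrospray and 7.44 on the control array. Others leaned the same way without reaching 2-fold on their brightest probe set. The vesicle GTPase gene rab-3 had 7.50 in heat shock, 6.64 after spraying and 6.72 in control, and its second, dimmer probe set differed by 1.22. The neuronal marker unc-119 had 4.16 in heat shock, 3.37 after spraying and 3.20 in control. Only 1 of these 34 genes passed through the heat shock array alone.

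Neuron classes differed from one another, and the monoamine list had a median below 0. Of 8 GABA neuron genes above the filter (of 11), the glutamate decarboxylase gene unc-25 (1.5) and the lysosomal-type membrane protein gene unc-46 (1.13) were 2-fold higher. The median of that list was 0.80, and over the 5 genes above the median on both arrays it was 0.25. Of 60 genes of ciliated sensory neurons, 12 passed the filter with a median of 0.38, and che-12 (1.22) was 2-fold higher. Of the 12, 4 passed through the heat shock array alone, che-12 among them. Over the 8 above the median on both arrays none was 2-fold higher and the median was 0.25. The cilium genes osm-6, che-2 and osm-3 were below the filter. Touch neuron genes (8 of 14, median 0.39) and glutamate neuron genes (9 of 19, median 0.05) had no member 2-fold apart. Of 5 cholinergic genes above the filter (of 9, median 0.17), unc-3 (1.14) was higher. Monoamine neuron genes (6 of 23) had a median of −0.42, with 5 of the 6 below 0 and none 2-fold apart. Few chemoreceptor genes passed the filter, 9 of 1276, with sri-70 (3.29) and srr-4 (2.27) among 3 that were higher. Of the 9, 2 passed through the heat shock array alone, and over the 4 above the median on both arrays 1 was higher.

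Neuropeptide genes made up the neuronal list with the most 2-fold members. Of 68 above the filter (of 86), 23 were at least 2-fold higher and 3 lower, with a median of 0.66, and 4 passed through the heat shock array alone. The neuropeptide-like gene nlp-7 had 6.96 on the heat shock array, 4.66 on the bio-electrospray and 4.36 on the control array. Next came nlp-17 (2.12), nlp-11 (1.89), nlp-50 (1.87), nlp-12 (1.83) and nlp-80 (1.81), and pdf-1, whose product sets locomotor states, was higher by 1.52. The 3 lower members were nlp-25 (−2.87), nlp-26 (−2.0) and nlp-30 (−1.18), of the group of nlp genes that encode antimicrobial peptides of the skin. Of the receptors for neuropeptides, 14 of 100 passed the filter and none was 2-fold apart (median 0.15).

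Epidermal genes that were 2-fold apart went both ways. In the list of hypodermis and seam cells, 27 of 30 genes passed the filter and the median was −0.59. Of the 27, 3 were 2-fold higher (11.1%, against 8.99% over all genes) and 6 lower (22.2%, against 8.21%). Over the 10 genes read by probe sets not shared between transcripts, 2 were higher and 2 lower and the median was 0.61. The higher ones were regulators: rnt-1, the RUNX factor of seam cell division, ceh-16, the engrailed factor of the seam, and lin-26, a zinc finger gene of epidermal fate. A further rnt-1 probe set differed by 0.62. On the brightest rnt-1 probe set the levels were 5.96 on the heat shock array and 3.53 on each of the bio-electrospray and control arrays. For ceh-16 they were 4.13 in heat shock, 2.48 after spraying and 2.46 in control, both of the lower values being under the array median. For lin-26 the difference was 1.03. The factor gene elt-3, a hypodermis marker, differed by 0.55 on its brightest probe set and by 1.06 on a dimmer one. The lower ones were products of the cuticle and the moult: cut-2, a cuticlin, wrt-4, dpy-5, mlt-10, rol-6 and dpy-13. The cuticlin gene cut-2 had 7.74 on the heat shock array, 11.18 on the bio-electrospray and 11.12 on the control array, and dpy-5, a cuticle procollagen gene, had 8.97 in heat shock, 11.24 after spraying and 11.34 in control.

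No junction or attachment gene of epithelia was 2-fold lower. Of 16 above the filter (of 18), dlg-1 (8.81 on the heat shock array, 7.12 on the bio-electrospray and 7.26 on the control array) and ajm-1 (6.44 in heat shock, 4.82 after spraying and 5.2 in control) were 2-fold higher. Both encode proteins of the apical junction. The further probe sets of ajm-1 differed by 0.03 to 0.87, none of them 2-fold, and that of dlg-1 by 2.19. The attachment genes let-805 (0.51), vab-10 (0.53) and mup-4 (−0.46) stayed within 2-fold, and the median was 0.25. The claudin-like clc family, whose products belong to membrane proteins of junctions in other animals, had the largest share of higher genes after the pals family, among families of at least 10 genes above the filter. Of its 13 genes above the filter (of 23), 10 were 2-fold higher and none lower, with a median of 1.15. Counting only the 9 genes above the median on both arrays, 6 were higher with a median of 1.03. Of the 18 pals genes above the filter 15 were higher, but 13 of the 18 passed through the heat shock array alone. Over the 5 pals genes above the median on both arrays, 3 were higher with a median of 1.06. Within the clc family the levels were as follows. The farthest apart was clc-11 (6.30 on the heat shock array, 2.46 on the bio-electrospray and 2.44 on the control array), and the brighter clc-1 had 7.99 in heat shock, 7.11 after spraying and 6.46 in control.

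Most muscle genes stayed within 2-fold. Each of the 40 body wall muscle genes passed the filter on both arrays, none was 2-fold higher and 4 were lower, with a median of −0.10. The myosin genes unc-54 (−0.16) and myo-3 (0.47) did not reach 2-fold. The 4 lower genes were unc-22, the giant kinase twitchin (4.68 on the heat shock array, 6.38 on the bio-electrospray and 6.75 on the control array), unc-52, the perlecan of muscle attachments (−1.21), the troponin gene tni-3 (−1.18) and the alpha-actinin gene atn-1 (−1.16). Of 9 pharyngeal muscle genes, myo-1 (−1.29, and −0.54 on its further probe set) and tnt-4 (−1.01) were lower. Of 4 pharyngeal gland genes above the filter, phat-6 (1.45) and phat-5 (1.07) were higher and phat-4 (−1.53) lower, and the median was 0.29. Basement membrane genes had 4 of 21 members lower and none higher (median −0.20), with fbl-1, the fibulin gene, at −1.92, and unc-52, nid-1 and gpn-1 between −1.21 and −1.11. A further, dimmer fbl-1 probe set went the other way, by 1.41 (4.97 in heat shock and 3.55 in control).

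In the intestine 7 of 32 genes above the filter (of 34) were lower and none was higher, although the median was −0.08. Digestive enzymes made up most of the 7. The cathepsin B-like protease gene cpr-6 had 6.82 on the heat shock array, 8.69 on the bio-electrospray and 8.82 on the control array. Its relatives cpr-4 (−1.43) and cpr-5 (−1.38) and the gut esterase gene ges-1 (4.34 in heat shock, 5.84 after spraying and 5.72 in control) were lower as well, as were the peptide transporter gene pept-1 (−1.26), the lysozyme gene lys-4 (−1.03) and spl-1 (−1.01). The GATA factor genes that specify the gut, elt-2 (−0.13) and elt-7 (0.18), and the gut actin gene act-5, at 9.98 on each array, did not reach 2-fold. Small tissues had few genes to count. The coelomocyte gene cup-4 was higher by 1.66, and by 0.51 on its further probe set. The excretory canal genes exc-9 (1.03) and aqp-8 (−1.5) went opposite ways, and the marker genes unc-122 and exc-4 were below the filter.

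Germline lists held no gene that was 2-fold higher. For the genes of germ cell fate and P granules, 24 of 36 passed the filter, 13 were 2-fold lower, and the median was −1.08. The largest fall in that list was that of daz-1, an RNA-binding protein gene of oogenesis, which had 3.56 on the heat shock array, 7.48 on the bio-electrospray and 7.50 on the control array. The sperm fate genes fog-3 (−1.98) and fog-1 (−1.24), the stem cell genes fbf-2 (−1.75) and fbf-1 (−1.13) and the P granule genes pgl-1 (−1.39) and deps-1 (−1.62) were lower too. Of 22 meiotic chromosome genes (of 32), 7 were lower with a median of −0.67. The nuclear envelope gene sun-1, needed for chromosome pairing, had 2.62 in heat shock, 5.63 after spraying and 5.64 in control, and the axis gene htp-3 had 2.52 in heat shock, 4.76 after spraying and 4.55 in control. Of 14 oocyte and eggshell genes (of 25), 4 were lower (median −0.56), among them cpg-2 (−2.19) and oma-2 (−1.27). In the sperm list 16 of 25 genes (of 68) were lower and the median was −1.64, but most are read by probe sets that may be shared, and over the 4 that are not the median was −0.03 with 1 lower. In these lists 4 of the germ cell fate, 8 of the meiotic, 7 of the oocyte and 9 of the sperm genes passed through the control array alone. Over the genes above the median on both arrays, 9 of 19, 3 of 14, 1 of 7 and 10 of 16 were lower, in that order. The medians were then −0.95, −0.44, −0.42 and −1.67.

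Lists of general function held genes used in the germline, some lower and some higher. Among 14 translation factor genes the 2 lower were iff-1, the eIF5A gene used in the germline (5.95 on the heat shock array, 9.78 on the bio-electrospray and 9.78 on the control array), and ifg-1 (−1.08), while ife-5, an eIF4E form also used in the germline, was higher by 1.29. Of 52 genes of the respiratory chain and ATP synthase 3 were lower, led by asb-1 (−1.91), the germline form of ATP synthase subunit b. The 2 lower innexin genes of 18, inx-8 (−1.47) and inx-22 (−1.39), encode gap junctions of the gonad. Both passed through the control array alone, so they could not be 2-fold higher. Over the 14 genes of that list above the median on both arrays none was lower, and the median was 0.17. Among 15 Notch pathway genes, glp-1, the germline receptor, had 2.77 in heat shock, 4.65 after spraying and 4.62 in control. In that list osm-7 differed by −1.46, and the ligand gene dsl-3 was higher by 1.73. There glp-1 passed through the control array alone and dsl-3 through the heat shock array alone. Most of each such list stayed within 2-fold.

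**Figure D3:**
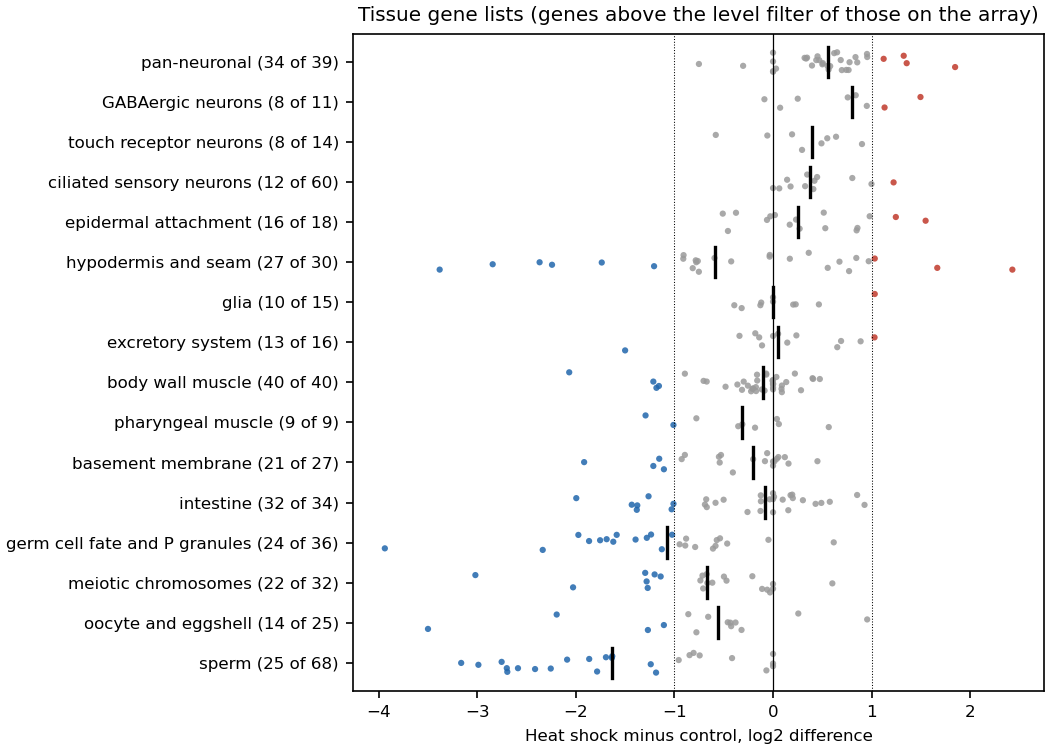
Heat shock minus control (log2, horizontal) for each gene of the tissue lists above the filter, 1 point a gene, with a bar at the list median; red and blue mark genes at least 2-fold higher or lower, and dotted lines 2-fold. The medians ran from 0.80 for GABA neuron genes to −1.64 for sperm genes, and the 4 germline lists held no red point. Of the 25 sperm genes 4 rest on unshared probe sets, with a median of −0.03.

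Transcription factor genes moved in 1 direction more than the other. Over all classes, 309 of 613 factor genes passed the filter, 40 were 2-fold higher and 5 lower, and the median was 0.20. Of the 309, 34 passed through the heat shock array alone and 11 through the control array alone. Over the 264 above the median on both arrays, 31 were higher and 4 lower with a median of 0.17. The 5 lower ones were lin-29, lin-11, hmbx-1, sem-2 and hmg-3.

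The bZIP class, which holds many stress regulators, had the highest median among classes with at least 3 genes above the filter. Of 21 genes above the filter (of 28), 8 were 2-fold higher and none lower, with a median of 0.96. Over the 17 above the median on both arrays, 6 were higher and the median was 0.51. Counted that way, the SMAD (0.65), GATA (0.55) and forkhead (0.53) classes had higher medians. The farthest apart was zip-8, with 5.03 on the heat shock array, 2.73 on the bio-electrospray and 2.69 on the control array. The AP-1 gene jun-1 had 6.85 in heat shock, 5.46 after spraying and 5.29 in control, and zip-10, known from the response to cold, had 6.89 in heat shock, 5.59 after spraying and 5.08 in control. The infection-response factor zip-2 had 9.69 in heat shock, 8.98 after spraying and 8.58 in control, with the bio-electrospray array between the others. The remaining higher members were xbp-1 and atf-6, sensors and effectors of stress in the endoplasmic reticulum, atf-2 (1.40) and zip-5 (1.39). Members of the class that did not reach 2-fold included skn-1, the oxidative stress regulator, at −0.09, atf-7, the factor under the p38 kinase PMK-1, at 0.20, and atfs-1, the mitochondrial stress factor, at 0.12.

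Nuclear hormone receptors, the largest class of transcription factors in this species, had 118 of 259 genes above the filter. Of these 11 were 2-fold higher, none was lower and the median was 0.17. The steroid receptor gene daf-12, which links hormones to larval timing, had 8.54 on the heat shock array, 6.38 on the bio-electrospray and 6.73 on the control array. The others farthest apart were nhr-147 (5.22 in heat shock, 2.79 after spraying and 2.55 in control), nhr-3 (7.52 in heat shock, 5.15 after spraying and 5.62 in control), nhr-154 (1.49) and nhr-14 (1.47). The fat metabolism regulator nhr-49 stood at 0.78, and nhr-23, a moulting regulator, at 0.17. For nhr-147 the control level was below the array median.

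Homeobox genes had 42 of 101 above the filter, 5 higher and 2 lower, with a median of 0.37 that was 0.085 over the 28 genes above the median on both arrays. The Hox gene mab-5, which patterns the posterior body, had 6.64 on the heat shock array, 5.0 on the bio-electrospray and 5.03 on the control array. Its further probe set differed by 0.24. The Hox gene of the midbody, lin-39, had 3.96 in heat shock, 2.95 after spraying and 2.94 in control, and zag-1, a factor of neuron fate, was higher by 1.12. The lower ones were lin-11 (4.07 in heat shock, 5.12 after spraying and 5.22 in control), a LIM factor of the vulva and neurons, and hmbx-1 (−1.1). The further probe set of lin-11 differed by −0.31. Among 48 C2H2 zinc finger genes 7 were higher, hbl-1 and lin-26 included, and lin-29 alone was lower. The Krüppel-like gene klf-3, known for fat storage, had 6.44 in heat shock, 4.70 after spraying and 4.56 in control, and pqm-1 had 7.36 in heat shock, 6.61 after spraying and 6.19 in control.

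The smaller classes had 1 or 2 members apart. In the bHLH class hlh-2, the partner of many neural factors, was higher at 3.96 on the heat shock array, 2.75 on the bio-electrospray and 2.58 on the control array. The further probe set of hlh-2 differed by 0.01. The Mad-like gene mdl-1 had 8.30 in heat shock, 6.93 after spraying and 6.97 in control. The autophagy regulator hlh-30 differed by 0.49. In the SOX and HMG class, sem-2, the SoxC gene of muscle precursors, had 4.11 in heat shock, 5.78 after spraying and 6.01 in control, hmg-3 was lower by −2.40 and hmg-11 higher by 1.32. No GATA gene was 2-fold apart among 7 on its brightest probe set, with elt-1 at 0.84 and elt-3 at 0.55. The second, dimmer probe set of elt-3 differed by 1.06. The master stress factors differed little in transcript level: daf-16 by 0.25 and hsf-1 by 0.55. For chromatin genes 2 of 39 were higher, dpy-27 and jmjd-3.1 (1.06), a histone demethylase, and none lower.

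**Figure D4:**
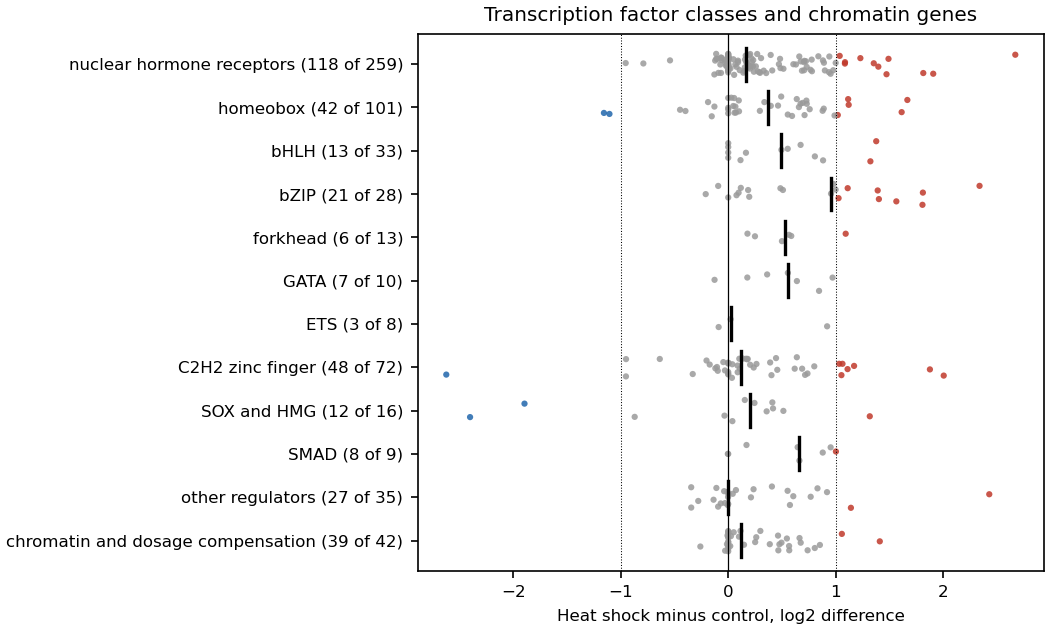
Heat shock minus control (log2, horizontal) for each transcription factor or chromatin gene above the filter, 1 point a gene, with a bar at the class median and dotted lines at 2-fold. The bZIP bar lies farthest right, at 0.96 (0.51 over genes above the median on both arrays). The blue points are the lower genes lin-29, hmg-3, sem-2, lin-11 and hmbx-1.

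Known targets of stress regulators were 2-fold apart in part only. Of 12 DAF-16 targets above the filter (of 14), 6 were 2-fold higher, yet 7 of the 12 passed through the heat shock array alone, and of the 5 above the median on both arrays 1 was higher. The metallothionein gene mtl-1 had 7.31 on the heat shock array, 3.77 on the bio-electrospray and 3.70 on the control array, whereas mtl-2, chosen after its values were seen, had 9.83 in heat shock, 10.69 after spraying and 10.50 in control. The mitochondrial superoxide dismutase gene sod-3 had 4.56 in heat shock, 2.90 after spraying and 2.71 in control, ftn-1, a ferritin gene, was higher by 1.64 and hil-1, a linker histone gene, by 1.69. Of 11 SKN-1 targets, sdz-8 (1.46) was higher, and gst-4, gst-10 (−1.47) and nit-1 (−1.29) were lower. The standard reporter of that pathway, gst-4, had 4.73 in heat shock, 6.21 after spraying and 6.34 in control. The HIF-1 target F22B5.4 had 5.97 in heat shock, 3.07 after spraying and 3.06 in control and was the 1 of 6 that was 2-fold apart. It passed through the heat shock array alone. Over the 4 HIF-1 targets above the median on both arrays none was 2-fold apart, and the median was −0.14.

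Autophagy genes leaned higher and none was 2-fold lower. Of 24 above the filter (of 29), 6 were 2-fold higher, 1 was below 0 and the median was 0.66, with 1 passing through the heat shock array alone. The cargo receptor gene sqst-1, the p62 of the worm, had 9.65 on the heat shock array, 8.10 on the bio-electrospray and 7.60 on the control array. The Atg8-type genes lgg-1 (10.90 in heat shock, 9.84 after spraying and 9.64 in control) and lgg-2 (8.86 in heat shock, 7.31 after spraying and 7.37 in control) were higher, as were atg-16.2 (1.51), atg-7 (1.11), which activates Atg8, and epg-4 (1.05). The levels of sqst-1, lgg-1 and lgg-2 were well above the array median on each array.

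Genes of the fasting response went both ways, with 4 of 19 higher, 1 lower and a median of 0.19. The lysosomal lipase gene lipl-1, which is induced by food withdrawal, had 5.35 on the heat shock array, 2.45 on the bio-electrospray and 2.66 on the control array. The enoyl-CoA hydratase gene ech-9 was higher by 2.04 and the desaturase gene fat-6 by 1.16. Its close relative fat-7 was lower, with 2.74 in heat shock, 3.16 after spraying and 4.50 in control, and acdh-1 had 10.31 in heat shock, 10.83 after spraying and 9.20 in control. For acdh-1 the bio-electrospray array was the highest of the 3.

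Defence genes differed gene by gene. Among 17 epidermal antimicrobial peptide and pathway genes (of 19), 4 were higher and 1 lower with a median of 0.24. The caenacin gene cnc-4 had 7.47 on the heat shock array, 5.14 on the bio-electrospray and 4.74 on the control array, cnc-6 (2.0) and cnc-3 (1.98) followed, and the adaptor gene tir-1, the worm SARM, was higher by 1.44. Of 9 targets of PMK-1 and ATF-7, irg-5 (7.56 in heat shock, 4.24 after spraying and 4.51 in control), sysm-1 (1.33) and clec-85 (1.28) were higher and C17H12.8 (−1.22) was lower, around a median of −0.35. In the list of RNA interference genes 5 of 48 were higher and 7 lower. The RNA-dependent RNA polymerase gene rrf-2 had 6.52 in heat shock, 2.65 after spraying and 2.76 in control, sid-5, which helps double-stranded RNA move between cells, was higher by 2.01, and prg-1, the Piwi gene of the germline, by 1.31. The Argonaute genes wago-1 (2.47 in heat shock, 5.94 after spraying and 5.79 in control) and wago-2 (−2.67) and the germline polymerase gene ego-1 (−1.26) were lower.

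Signalling pathways held few genes apart. In the Wnt list 4 of 27 genes were higher and none lower (median 0.31): the ligand genes cwn-1 (1.39) and lin-44 (1.23), prkl-1 (1.22), the Prickle gene, and apr-1 (1.01), the APC-related gene. Of 18 cell death and engulfment genes, egl-1 (1.44), the BH3-only activator of cell death, and cps-6 (1.5), a mitochondrial nuclease gene, were higher. In 17 TGF-beta genes the Smad gene sma-3 (1.0) and the ligand gene unc-129 (1.15) were higher. Insulin pathway genes had 3 of 22 higher and 1 lower, with pdk-1 (1.23), a kinase under the receptor, and ins-35 (−1.59) among them. No EGF or Ras pathway gene was 2-fold apart in 15.

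Hedgehog-related genes, a nematode group of secreted proteins tied to the cuticle, were mostly lower where they differed. With the patched-related genes included, 48 of 82 passed the filter, 2 were higher, 15 lower and the median was −0.66, and 8 passed through the control array alone. The gene grd-14 had 5.67 on the heat shock array and 10.23 on each of the other arrays, and grl-16 had 6.12 in heat shock, 8.91 after spraying and 8.90 in control. Against this, grd-3 was higher, with 9.58 in heat shock, 7.72 after spraying and 7.67 in control. The astacin metalloprotease family nas, several of whose members cut cuticle proteins at the moult, had 8 of 16 genes lower and 1 higher (median −1.09). Its member nas-27 had 2.62 in heat shock, 4.55 after spraying and 5.18 in control, nas-8 was lower by −2.0 and nas-31 higher by 1.07, and 7 of the 16 passed through the control array alone.

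Genes of the ribosome, glycolysis and tRNA charging stayed within 2-fold. None of 62 cytosolic ribosomal protein genes was 2-fold apart (median 0.12), none of 22 genes of glycolysis and gluconeogenesis (median 0) and none of 19 tRNA synthetase genes (median −0.11). Splicing genes had 2 of 43 lower and mitochondrial ribosome genes 3 of 54 lower (medians −0.06 and −0.31). By contrast, chromosome replication and mitosis genes had 19 of 70 lower and 1 higher, with a median of −0.37. The centromere and kinetochore genes hcp-2 (−1.88), hcp-1 (−1.6), hcp-4 (−1.51) and knl-1 (−1.31) were among the lower.

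By symbol, 76 families had at least 10 genes above the filter. In 12 of them at least 1 gene in 4 was 2-fold higher, in 8 at least 1 in 4 was lower, and in 18 no gene was 2-fold apart. The last group included the ribosomal protein families rpl and rps, the vps vesicle sorting genes (31), the dnj co-chaperone genes (27), the npp nuclear pore genes (24) and the vha proton pump genes (18). Of 19 hsp heat shock protein genes, 6 were higher and none lower (median 0.18), among them hsp-16.2 (6.52), hsp-16.41 (6.20) and hsp-70 (3.70). Of the 19, 6 passed through the heat shock array alone. Over the 13 above the median on both arrays, 2 were higher and the median was −0.15.

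Families of protein degradation adaptors were among the higher ones, with most of their genes below the filter. The fbxa family of F-box proteins, which bring substrates to ubiquitin ligases, had 58 of 171 genes above the filter, 18 higher, 1 lower and a median of 0.59. Of the 58, 19 passed through the heat shock array alone. Over F-box and MATH adaptors together, 98 of 427 passed, 30 were higher and 2 lower with a median of 0.51. The 60 above the median on both arrays had 12 higher and a median of 0.26, and with no level filter the median was −0.03. Within fbxa the farthest apart was fbxa-158, which had 5.91 on the heat shock array, 2.65 on the bio-electrospray and 2.66 on the control array.

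Detoxification and secreted-protein families split within themselves. Of 21 glutathione S-transferase genes, gst-24 alone was higher, with 8.65 on the heat shock array, 4.59 on the bio-electrospray and 4.85 on the control array, and 5 were lower, from gst-13 (−2.13) to gst-28 (−1.3). The UDP-glucuronosyltransferase genes had 3 of 44 higher and 7 lower. There ugt-39 had 7.21 in heat shock, 3.66 after spraying and 4.1 in control, and ugt-47 (−2.56) and ugt-1 (−2.48) were the lowest. Of 46 C-type lectin genes 10 were higher and 9 lower. The lectin gene clec-60, known for induction by bacterial infection of the gut, had 9.44 in heat shock, 3.20 after spraying and 3.11 in control, while clec-4 had 3.13 in heat shock, 7.42 after spraying and 6.46 in control. The transthyretin-related ttr family had 6 of 30 higher and 1 lower, with ttr-23 at 6.26 in heat shock, 3.16 after spraying and 3.17 in control and ttr-44 at −2.87. Cytochrome P450 genes of the cyp prefix had 4 of 29 higher, cyp-37B1 (1.69) the farthest, and none lower. Of the 29, 4 passed through the heat shock array alone. Over the 23 above the median on both arrays 1 was higher and the median was 0.

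Lower genes were common in the abu, dbd, idpp and nspb families. Each of the 9 abu genes above the filter (of 11), repeat proteins of the pharyngeal cuticle, was 2-fold lower, with a median of −3.57. The largest difference was that of abu-15, with 4.72 on the heat shock array, 9.73 on the bio-electrospray and 9.68 on the control array. In the dbd family 7 of 12 genes were lower and none higher, with dbd-20 at 4.90 in heat shock, 8.54 after spraying and 8.52 in control. In the idpp family 6 of 12 were lower, led by idpp-9 (−3.66), and idpp-16 was higher by 2.18. Of the 12, 4 passed through the control array alone, and over the 7 above the median on both arrays 2 were lower and the median was −0.46 in place of −1.07. Each of the 4 nspb genes was lower, nspb-10 most with 2.73 in heat shock, 8.21 after spraying and 8.08 in control. Of these 4, 3 passed through the control array alone, so they could not be 2-fold higher. Probe sets of the abu and nspb genes can read more than 1 family member, since 2 of the 9 and 1 of the 4 rest on unshared probe sets.

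**Figure D5:**
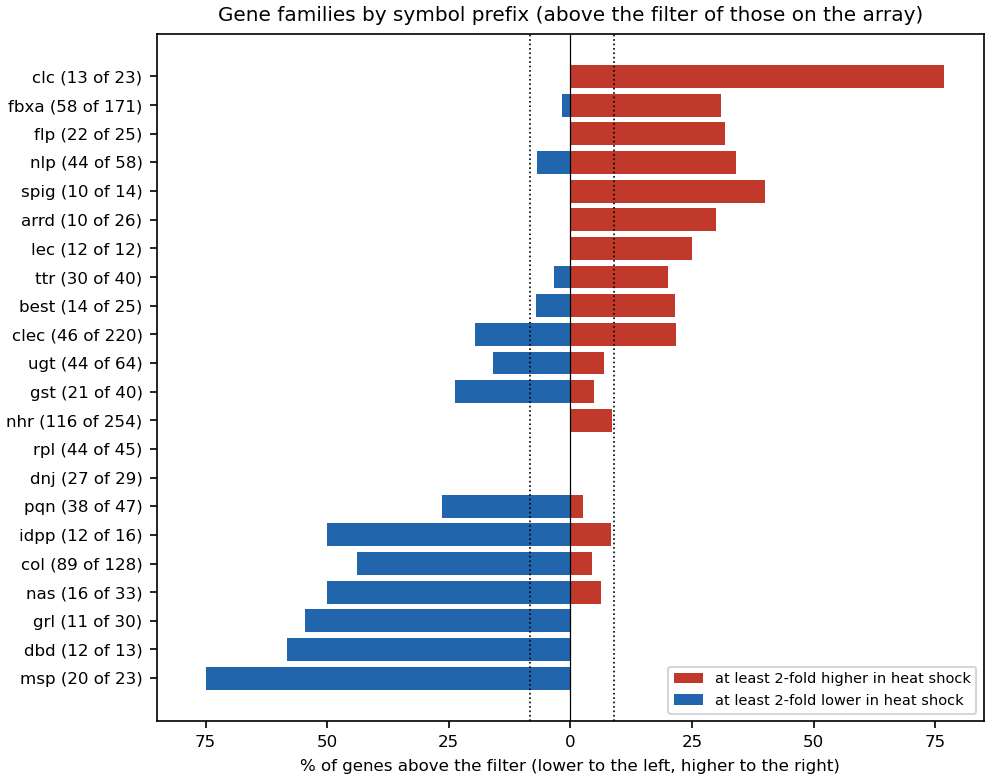
Share of the genes above the filter (%) that were at least 2-fold higher (red, to the right) or lower (blue, to the left) in heat shock, for 22 families named by symbol prefix; dotted lines mark the shares over all genes, 8.99% and 8.21%. The pals family, with 15 of 18 genes higher and 13 of the 18 above the filter through the heat shock array alone, is not drawn. Of the families drawn the clc bar reaches farthest right with 10 of 13 genes, and the dbd, grl and msp bars are farthest left.

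Beyond families, the 30 largest differences each way held long non-coding RNAs, enzyme genes and genes known only by sequence names. On the higher side tts-1, a long non-coding RNA found on ribosomes of long-lived worms, had 9.38 on the heat shock array, 4.2 on the bio-electrospray and 4.80 on the control array, and vsra-1 had 9.0 in heat shock, 4.50 after spraying and 4.30 in control. The sequence-named genes Y53F4B.45 (4.34), C53A5.9 (4.46) and R11A5.3 (4.23) were in this group, as was lido-9 (3.94). Of these 30 genes, 20 lay below the median on the control array, so their folds rest on how background was modelled. On the lower side stood plk-3, a polo-like kinase gene, with 2.65 in heat shock, 6.56 after spraying and 6.71 in control, and cpb-1 and cpb-3, of the CPEB translation regulators of the germline, at −3.81 and −3.69. The acid phosphatase gene pho-11 had 5.58 in heat shock, 9.78 after spraying and 9.82 in control, and acox-1.2, of the acyl-CoA oxidases that make pheromone side chains, had 3.28 in heat shock, 6.85 after spraying and 7.52 in control. On this side 12 of 30 genes lay below the median on the heat shock array.

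Some genes 2-fold apart in the same direction were neighbours. In the RefSeq gene order there were 6 runs of at least 4 genes, 3 higher and 3 lower, in which genes 2-fold apart in the same direction had between them at most 2 protein-coding genes, none of which passed the filter. They held 25 genes. The 3 higher runs were fbxa-163, fbxa-165, fbxa-166 and fbxa-158 (1.55 to 3.26), fbxa-59, fbxa-60, fbxa-67 and fbxa-11 (1.03 to 2.64), and pals-2, pals-12, pals-11, pals-5 and pals-6, of a family induced by intracellular pathogens (1.35 to 5.28). The lower runs were R12E2.15, R12E2.14 and R12E2.7 with poml-2 (−2.80 to −1.14), plk-3, F55G1.6, pycr-4 and rod-1 (−4.06 to −1.08), and pqn-63, idpc-7, idpc-6 and idpc-5 (−3.44 to −1.31). Except for fbxa-60 and fbxa-67, every gene of the higher runs passed through the heat shock array alone and so could only be higher. In the lower runs poml-2, plk-3 and F55G1.6 passed through the control array alone, so they could not be 2-fold higher. Within the first lower run every probe set may be shared between transcripts. How many such runs the same number of changed genes would give in another order was not tested.

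The agreement between probe sets of 1 gene gives a view of technical spread. Genes that were 2-fold apart had 298 further probe sets above the filter, 286 of which differed in the same direction and 165 by at least 2-fold. Among the further probe sets under 2-fold were those of knl-1 (−0.48) and pdk-1 (0.80). Probe sets of 1 gene share the arrays and the larvae, so this says nothing of the spread between cultures. Split into 4 equal classes by mean level, the dimmest class held 203 higher and 138 lower genes of 2254, and the brightest 202 higher and 191 lower of 2253.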

How the data were processed

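RNA of whole larvae was measured on 3 Affymetrix C. elegans arrays, 1 for each of heat shock, bio-electrospray and control. The deposited values are GCRMA levels, per the submitters' processing notes, whose version is not given in the sources used here. The deposited levels were read as log2, the scale in which GCRMA reports, and on this pair they ran from 1.81 to 13.96. GCRMA as usually run corrects background by probe sequence and normalizes by quantiles, so dim probe sets lie on a common floor and folds against it depend on that model. Depth has no meaning for arrays; their number, 1 a group, limits the precision, and no test was run.

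Probe sets were named from the platform annotation (20766 with 1 symbol, 887 with several, 972 with none), with 20701 of the single-symbol ones found in the RefSeq gene table, which gave neighbour order. Log2 levels were subtracted, and probe sets were kept if 1 array or both had them above its median (percentile 50). The brightest probe set over the pair stood for a gene, and differences of at least 2-fold were counted. The 71 gene lists (76 names not matched) and the families of at least 10 genes were chosen with earlier results of these data known. A median was given for lists of at least 3 genes. Genes were named by rule: the 30 largest differences each way as a pool to draw on, members of a described list or family at least 2-fold apart, up to 4 further members with the largest difference, the defining regulator, and members of runs. Other names, among them markers and regulators near 0 such as myo-3, elt-2, act-5, skn-1, atf-7 and nhr-23, were chosen after their values were seen. The counting step was checked on simulated data. Alternatives covered 3 scalings (quantile, median centring, loess with span 0.3), 3 level filters, an offset of 16 on the linear scale, unshared probe sets, means over probe sets and thresholds of 1.5-fold and 3-fold. Computations used Python 3.11.15, numpy 2.4.6, pandas 2.3.3 and statsmodels 0.14.6, and figures matplotlib 3.10.9.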

Additional observations from a re-analysis of the deposited data

Results flagged for a closer look

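Probe sets left out of the gene counts also differed between the heat shock and control arrays. Of 376 probe sets above the filter that name several genes, 62 stood 2-fold or more above control and 58 as far below it. On the higher side the probe set of clec-13 with clec-15 (4.88) was farthest apart, followed by those of C08E3.13 with C08E3.1 (4.62 and 4.59). Next came Y105C5A.12 with Y105C5A.13 (4.41) and dod-21 with cld-1 (4.31). On the lower side nspb-2 with nspb-3 (−5.45) and col-162 with col-161 (−5.44) were farthest apart, and abu-7 with abu-8 stood at −4.61. Of 218 probe sets with no gene symbol, 18 were higher and 10 lower. No control group has a second array, so these counts have no replicate check.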

How the results depend on the processing

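The counts of genes and probe sets depended on the threshold, the offset and the filter more than on the scaling. At 1.5-fold there were 1602 higher and 1350 lower genes (2087 and 1689 probe sets), and at 3-fold 324 higher and 359 lower genes (408 and 455 probe sets). An offset of 16 on linear levels, which draws dim genes together, left 399 genes higher and 406 lower (516 and 519 probe sets). A filter at the 75th percentile left 539 higher genes. Without probe sets that may be shared, 477 genes were lower, and 680 probe sets were higher and 509 lower. Quantile normalization, median centring and loess moved the median of all genes by −0.03, −0.04 and −0.05. The medians of the F-box and MATH adaptors (−0.0324), of fbxa (−0.0216) and of math (−0.0332) turned negative with no level filter, and that of the pharyngeal gland list (−0.4869) with genes above the median on both arrays. Of 825 recomputed list and family medians, 722 moved by less than 0.25 and 99 by more without counting the 4 above. The sign turned in 28 of the 825, in 24 from a median of less than 0.25 in size and in those 4 from a larger one. Each of the 60 genes with the largest differences stayed 2-fold apart in every alternative that could be computed for it (490 values). They were picked for their size in these data, so this was close to fixed in advance. The filter on both arrays gave no value to a gene without a probe set above both medians. No paired analysis was possible because each group has 1 array.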
